A study of Mus musculus with 2 samples.

Results

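Cytosolic ribosomal protein genes were examined in the second polar body (PB2), the small cell that the egg extrudes at the end of meiosis, and in the zygote from which it was taken. Genes were selected by symbol, as Rpl, Rps or Rplp followed by a number and at most a letter and a digit, which leaves out the Rps6k kinases and annotated pseudogenes. This took 77 of the 11262 genes of the deposited table, 47 of the large and 30 of the small subunit. Each group was 1 library, made from a pool of 70 PB2s or 70 zygotes of untreated C57BL/6 mouse embryos at the late one-cell stage, whose zona had been removed in acid Tyrode's solution and whose PB2 had been freed by pipetting in trypsin. The mRNA was amplified with a full-length single-cell kit before library construction. There was no replicate, so no test was run, and each difference below describes these libraries only.

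The values were TPM, a transcript abundance that adjusts each gene for its length and for the total of its library. TPM can therefore be compared between genes within a library, but a comparison between libraries is one of proportions, and less RNA per PB2 cannot be seen in it. The depth of the libraries is unknown. Its rows summed to 92.7% of a full library for the zygote and to 89.8% for PB2. All 10 oocyte and zygote markers had a row, at 62.7 to 13021 TPM in the zygote and 99.5 to 10496 TPM in PB2. Of the 14 cumulus and granulosa markers 3 had a row, and their summed level was 75 TPM in the zygote against 75.7 TPM in PB2, nearly all of it Cyp19a1. Of 6 sperm markers Prm2 had a row, at 19.8 TPM in the zygote against 22 TPM in PB2. The part of other cells in the levels below was not tested.

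A cytosolic ribosome has a small subunit, which decodes the mRNA, and a large subunit, which joins the amino acids, and its proteins are needed in nearly equal numbers. Their mRNAs are short, abundant in most cells, and begin with a run of pyrimidines at the 5′ end, the terminal oligopyrimidine (TOP) motif, through which translation of the whole class is switched on and off together. The growing mouse oocyte stores ribosomes and mRNA, and the early embryo lives on that store until its own genome is transcribed. Each ribosomal protein gene has also left many processed pseudogenes in the mouse genome, copies of its mRNA without introns, which complicates the assignment of reads.

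Pyrimidine runs near the annotated starts were read from RefSeq (GRCm38.p6), which gave a window for 58 of the 77 genes by symbol. In the 50 bases before and the 50 after a start, on the strand of the gene, the longest run of C or T had a median of 11 bases in these genes, against 7 over the 8911 genes of the table with a window and 6 over 68 mitochondrial ribosomal protein genes. A run of at least 8 bases was present in 50 of the 58 genes, 86.2%, against 36.8% of the genes of the table and 33.8% of the mitochondrial ribosomal protein genes. The letters CTTTC, searched on the same strand and able to lie within such a run, occurred in 51.7% of the 58 windows and in 12.6% of all. The pieces printed here belong to genes on which the results below turn: an abundant paralog, the members that lay farthest apart between the libraries, and ordinary members for comparison. Capitals mark the longest run in each window, or its part within the piece. In Rps27l the last 9 bases of the piece are a run of the same length and are not marked.
Rps6, chr4:86857349-86857378, minus strand: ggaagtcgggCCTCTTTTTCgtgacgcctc
Rplp2, chr7:141447636-141447665, plus strand: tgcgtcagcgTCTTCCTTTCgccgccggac
Rpl5, chr5:107900497-107900526, plus strand: gcctacagccaCTCTTTCTCacgtcgcttg
Rpl35a, chr16:33056468-33056497, plus strand: cggggcttgCCTTCCTCTTTCCgccatctt
Rpl34, chr3:130730330-130730359, minus strand: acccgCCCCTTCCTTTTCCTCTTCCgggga
Rps19, chr7:24884626-24884655, plus strand: cgtcgTTCCCTTTCCCCTggctggcagcgc
Rps27l, chr9:66946053-66946082, plus strand: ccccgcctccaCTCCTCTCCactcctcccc
Rpl39, chrX:37085173-37085202, minus strand: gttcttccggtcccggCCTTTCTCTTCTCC
Rpl39l, chr16:10170191-10170220, plus strand: aacacccactgCCTCTCCCTagctcccagg
Rpl7l1, chr17:46782671-46782700, minus strand: cgtcgaggcgggCCTCTCTaccccgcccgg

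The runs of Rpl34 (20 bases), Rpl39 (14), Rpl35a (13) and Rps19 (13) were longer than those of Rps27l (9), Rpl39l (9) and Rpl7l1 (7). Counted from the annotated start, the run began at -45 in Rps19, -32 in Rpl7l1, -26 in Rpl39l, -22 in Rps27l and -20 in Rpl5. It began at -17 in Rpl34, 24 in Rpl35a and 36 in Rpl39. Transcript starts were not measured here, so these runs are not shown to be TOP motifs. Rpl5, the member with the lowest log2 ratio on the scale with a pseudocount of 1, had a run of 9 bases, while Rps19, the member with the highest, had 13. Without the pseudocount Rpl7l1 lay farther towards the zygote, by 3.04 times against 2.98 times for Rpl5.

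The cytosolic ribosomal protein mRNAs were a small share of both libraries. Together the 77 genes held 7552 TPM in the zygote against 6758 TPM in PB2, which is 0.755% and 0.676% of a full library. The median member had 35.3 TPM in the zygote against 29.3 TPM in PB2. In the zygote 15 members reached 100 TPM and 17 lay under 10 TPM. In PB2 these numbers were 14 and 20. The deposited TPM thus differed widely between genes whose products are needed in like amounts. They ran from 0.60 to 2587 TPM in the zygote and from 0.60 to 2163 TPM in PB2. Many of these genes share coding sequence with other annotated genes, and the part of this in the spread was not tested.

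Rps27l, which encodes a paralog of the small subunit protein Rps27 and is known as a target of p53, stood above every other member. It had 2587 TPM in the zygote against 2163 TPM in PB2, ranks 45 and 53 of the whole table, and made up 34.3% of the TPM of the members in the zygote and 32.0% in PB2. Its log2 ratio, log2((PB2 TPM + 1)/(zygote TPM + 1)), was -0.26. Without it the members held 0.497% of a full library in the zygote and 0.460% in PB2. Rps27 itself was not analysed here.

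Among the other abundant members were Rpl17, at the exit tunnel of the large subunit, with 737.1 TPM in the zygote against 758.7 TPM in PB2, and Rpl4, a core protein of the large subunit that lines the tunnel, with 193.9 and 158.1 TPM. At the other end of the zygote library, Rpl3, which lies near the site of peptide bond formation, had 1.90 TPM in the zygote against 1.30 TPM in PB2. Rps3, a protein of the mRNA entry channel, had 1.5 and 2.40 TPM, Rpl9 1.5 and 2.30 TPM and Rpl22l1 0.90 and 1.4 TPM. Rpl12 (0.70 and 0.60 TPM) was the only member under 1 TPM in both libraries and was left out of the ratios, and Rps19 had 0.60 TPM in the zygote against 2.30 TPM in PB2. TPM were deposited to 1 decimal, which makes the ratios of these low members coarse.

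**Figure D1:**
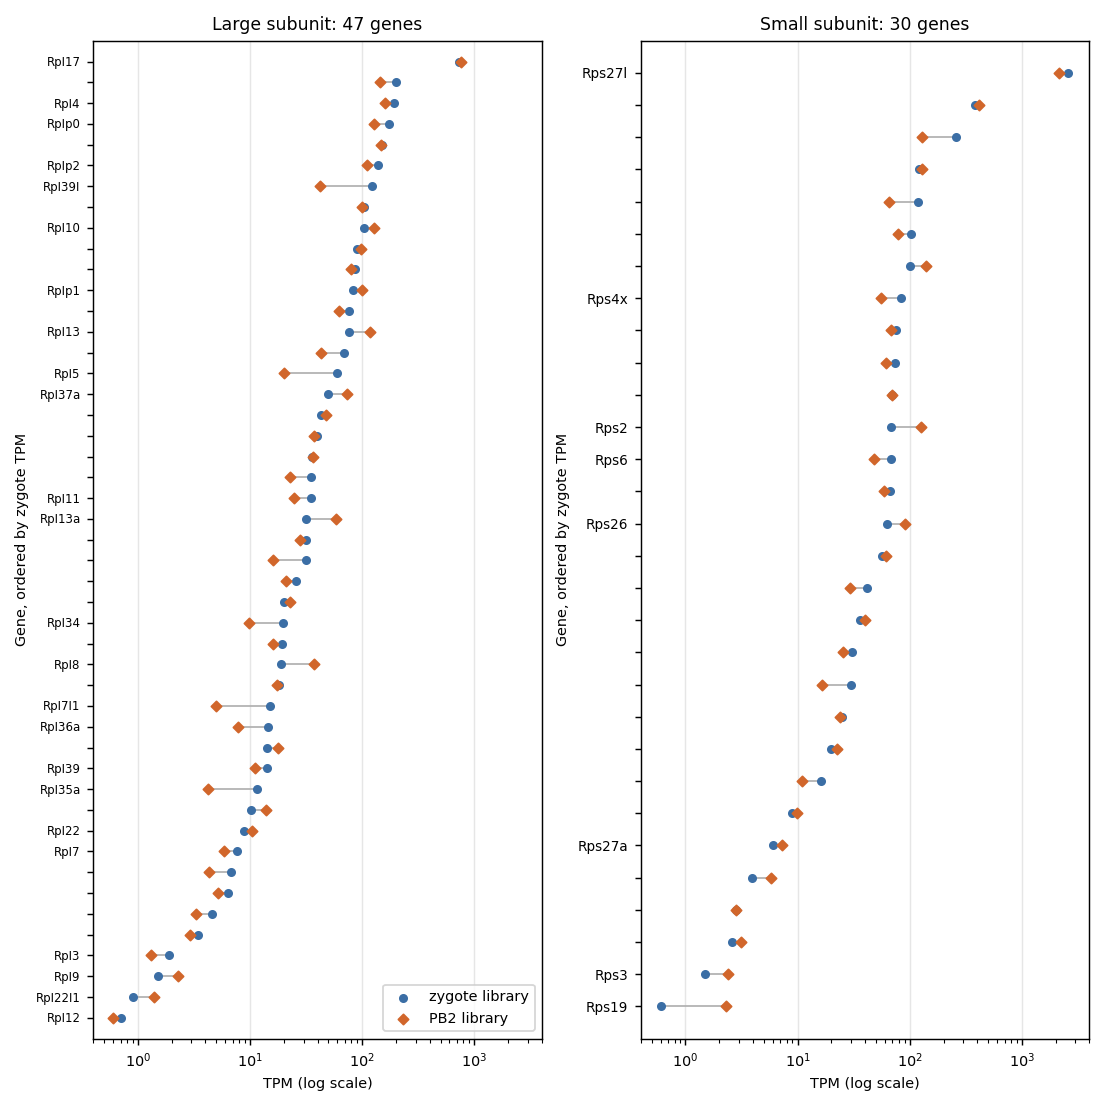
Level of each of the 77 ribosomal protein genes in TPM (log axis) in the zygote library (circles) and the PB2 library (diamonds), 1 library each, with the large subunit on the left and the small subunit on the right and the symbols of the genes described in the text. Rps27l stands apart at 2587 and 2163 TPM, most genes lie between 10 and 100 TPM, and the points of a gene are close to each other relative to the distance between genes.

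The order of the members was nearly the same in both libraries. Across the 76 members compared, those with at least 1 TPM in either library, Spearman's rho between the levels in PB2 and in the zygote was 0.96, against 0.91 across the 10645 genes compared. These are correlations across genes, which are not independent replicates, and the values of a library share its amplification and its depth. The standard deviation of the log2 ratio was 0.54 over the members and 0.88 over all genes compared. The groups were not matched for level. The median in the zygote was 35.4 TPM over the 76 members and 10.1 TPM over all genes compared. The part of level in these values, and in the shares past 2-fold below, was not tested.

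Few ribosomal protein genes differed 2-fold between PB2 and the zygote. Rps19, which had 0.60 TPM in the zygote, was the 1 member at least 2-fold higher in PB2, 1.32% of the 76, whereas 18.9% of all genes compared passed 2-fold in that direction. Rpl5, Rpl39l, Rpl7l1 and Rpl35a, all of the large subunit, exceeded 2-fold towards the zygote, 5.26% of the members against 8.09% of all genes. At 1.5-fold 5 members were above in PB2 and 12 in the zygote library, against 34.3% and 18.2% of all genes. The median log2 ratio was -0.12 over the members, with quartiles of -0.44 and 0.17, and 0.21 over all genes compared, with quartiles of -0.38 and 0.82. A ratio below 0 was found in 45 members, 59.2%, and in 40.0% of all genes. Both libraries are scaled to a common total, so relative to the median of all genes the members lay at -0.33.

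The median of the members changed sign when a trend on transcript length was removed. Their representative transcripts had a median length of 843 nucleotides, against 2906 over all genes compared, and a median GC content of 51.8% against 49.3%. Across all genes the log2 ratio had a Spearman's rho of 0.18 with length and of 0.45 with GC content. With that trend removed the members' median was 0.11, and without the trend on GC content it was -0.51, where the median of all genes was 0.00 and 0.01. With both removed it was 0.11. Within the members rho was -0.03 for length and 0.20 for GC content, over 76 genes. The part of length and GC content in the difference was not tested further.

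**Figure D2:**
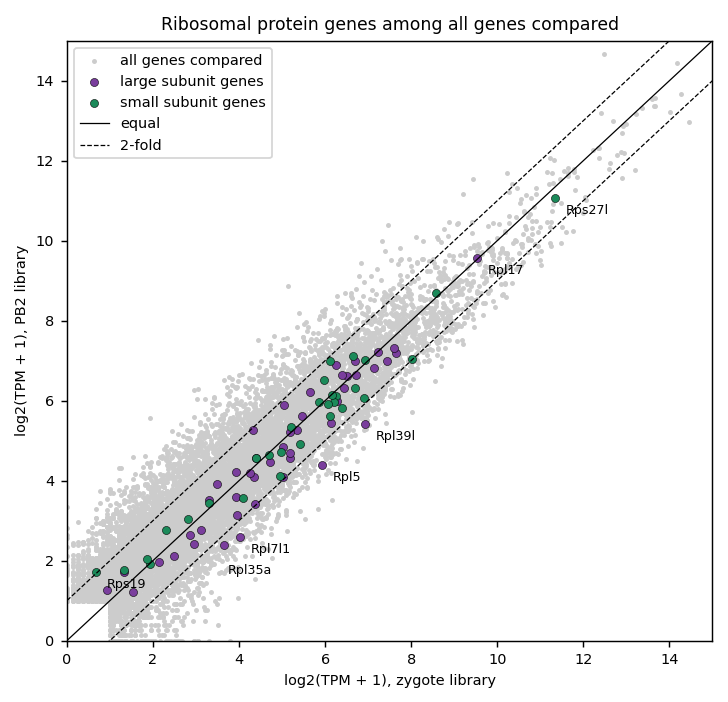
Level in PB2 against level in the zygote, both as log2(TPM + 1), for all genes compared (grey), large subunit genes (purple) and small subunit genes (green), with lines at equal levels and at 2-fold. The members follow the line of equal levels, with Rpl5, Rpl39l, Rpl7l1 and Rpl35a below the lower 2-fold line and Rps19 at the upper one.

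The large subunit lay slightly lower than the small one. The median log2 ratio was -0.20 over 46 large subunit genes and -0.01 over 30 small subunit genes, with quartiles of -0.45 and 0.16 for the former and -0.35 and 0.18 for the latter. Of the large subunit genes 30 had a ratio below 0, and of the small subunit genes 15. All 4 members at least 2-fold higher in the zygote belonged to the large subunit, where they were 8.70% of the genes, close to the 8.09% of all genes, while 0 of the 30 small subunit genes passed 2-fold in that direction. Whether the subunits differ beyond the spread between samples cannot be said from 1 library of each. Without the trend on length the medians were -0.04 and 0.26.

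Rpl5 binds the 5S ribosomal RNA together with Rpl11, and the particle they form inhibits Mdm2 when ribosome assembly is disturbed. Rpl5 (ENSMUSG00000058558, chromosome 5, 107900502 to 107909005 in GENCODE M21) had 59.7 TPM in the zygote against 20 TPM in PB2, 2.98 times as much in the zygote, with a log2 ratio of -1.53. Of its representative transcript, 46.6% of the exonic bases overlap exons of another annotated gene, and how reads there were counted is not stated. Every 50-base window of the Rpl5 coding sequence also occurs in a transcript of another annotated gene. Rpl11, its partner, had 35.2 TPM in the zygote against 24.7 TPM in PB2, a log2 ratio of -0.49.

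Rpl35a, a large subunit protein, had 11.5 TPM in the zygote against 4.20 TPM in PB2, a log2 ratio of -1.27. Rpl34 had 19.6 and 9.70 TPM, a log2 ratio of -0.95, and 2.02 times as much in the zygote before the pseudocount is added. Both had lower levels in the zygote than Rpl5.

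Towards PB2, Rpl8 had 19.0 TPM in the zygote against 37.4 TPM in PB2, a log2 ratio of 0.94. Rpl13a, which is also known outside the ribosome as a repressor of translation in inflammation, had 31.8 and 58.8 TPM, and Rps2 had 68.4 and 125.1 TPM, with log2 ratios of 0.87 and 0.86. Rpl13 had 75.5 and 116.7 TPM, Rpl37a 49.3 and 72.7 TPM and Rps26, which contacts the mRNA upstream of the decoding site, 62.2 and 90.3 TPM, with log2 ratios from 0.53 to 0.62. All of these stayed under 2-fold. The exons of Rpl13a overlap those of other annotated genes over 59.3% of its representative transcript. Of its 50-base coding windows, 97.5% occur in a transcript of another annotated gene. Rps19, whose loss causes Diamond-Blackfan anemia, had a ratio of 3.83 between PB2 and the zygote, and rounding alone allows any ratio between 3.46 and 4.27.

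The acidic stalk of the large subunit, which recruits elongation factors, is built of Rplp0, Rplp1 and Rplp2. Rplp0 had 172.3 TPM in the zygote against 127.1 TPM in PB2, Rplp2 139.6 and 110.8 TPM, and Rplp1 82.4 and 99.5 TPM. Their log2 ratios were -0.44, -0.33 and 0.27. Rplp1 and Rplp2, which enter the stalk in equal numbers, thus lay on opposite sides of 0, each under 1.5-fold. Rps6, the small subunit protein that is phosphorylated downstream of mTOR, had 68.2 and 48.0 TPM, a log2 ratio of -0.50. Rps27a, which is made as a fusion with ubiquitin, had 6.00 and 7.20 TPM.

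Of the X-linked members, Rpl10 had 103.1 TPM in the zygote against 126.6 TPM in PB2, Rps4x 82.9 and 55.3 TPM, Rpl36a 14.4 and 7.80 TPM and Rpl39 14.2 and 11 TPM. Their log2 ratios were 0.29, -0.58, -0.81 and -0.34. The ribosomal protein genes in which mutations cause Diamond-Blackfan anemia, from a hand-written list, were 20 of the members compared. Their median log2 ratio was -0.09, with 1 gene past 2-fold towards PB2, 5% where 18.9% of all genes did so, and 2 towards the zygote, 10% where 8.09% did so.

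The paralogs Rpl39l and Rpl7l1 were among the members that differed most. The paralogs Rps27l and Rpl22l1 differed less, with log2 ratios of -0.26 and 0.34. Rpl39l, a paralog of Rpl39 known for its expression in male germ cells, had 121.2 TPM in the zygote against 42.0 TPM in PB2, 2.89 times as much in the zygote, with a log2 ratio of -1.51. Rpl39 had 14.2 and 11 TPM. Rpl39l thus made up 89.5% of the pair in the zygote and 79.2% in PB2. None of the 50-base windows of the Rpl39l coding sequence occurs in another annotated transcript, whereas 86.5% of those of Rpl39 do.

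Rpl7l1, a paralog of Rpl7, had 15.2 TPM in the zygote against 5.00 TPM in PB2, a log2 ratio of -1.43, and Rpl7 had 7.6 and 5.8 TPM. The paralog was therefore 66.7% of the pair in the zygote and 46.3% in PB2. Rpl36al (66.4 and 51.0 TPM), whose symbol lies outside the selection, exceeded Rpl36a in both libraries and made up 82.2% of the pair in the zygote and 86.7% in PB2, but every window of both coding sequences also occurs in another annotated gene. Rpl22 (8.90 and 10.5 TPM), in contrast, exceeded its paralog Rpl22l1 in both, by 9.89 times in the zygote and 7.5 times in PB2. These ratios are coarse, since Rpl22l1 had 0.90 and 1.4 TPM. Shared windows made up 77.5% of Rpl7 and 21.9% of Rpl7l1, and 31.0% of Rpl22 and 84.2% of Rpl22l1. The part of unequal sharing in the levels of these pairs was not tested. Rpl3l, Rpl10l and Rps4l were not analysed here.

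**Figure D3:**
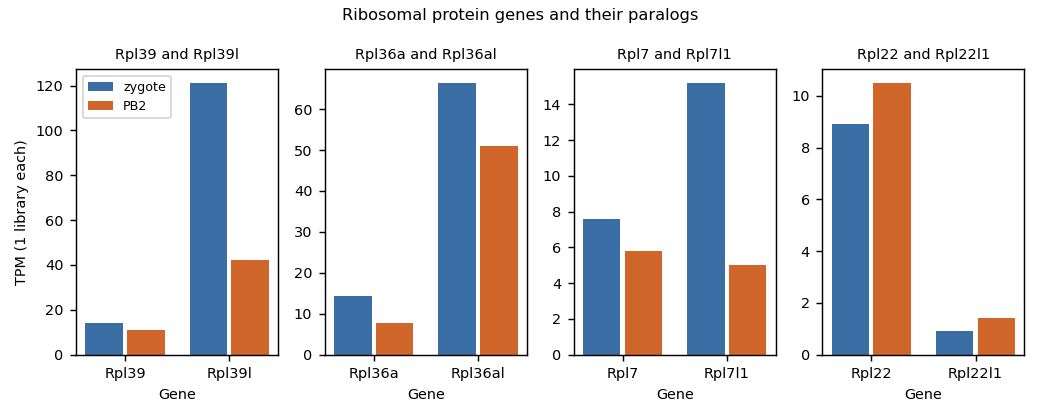
TPM of 4 ribosomal protein genes and their paralogs in the zygote library (blue bars) and the PB2 library (orange bars), 1 library each and a separate axis from 0 for each pair. Rpl39l and Rpl36al exceed Rpl39 and Rpl36a in both libraries, Rpl7l1 exceeds Rpl7 in the zygote, and Rpl22 exceeds Rpl22l1 in both.

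Other ribosomal proteins have symbols outside the selection. Fau, which encodes a ubiquitin-like protein fused to a small subunit protein, had 233.3 TPM in the zygote against 226.2 TPM in PB2. Rack1, the scaffold on the head of the small subunit, had 54.5 and 50.2 TPM. Rpsa, the laminin receptor protein of the small subunit, had 1.5 and 4.70 TPM, a log2 ratio of 1.19, and would have been a further gene past 2-fold. Rpsa shares 98.8% of its coding windows with other annotated genes.

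Much of the coding sequence of these genes is not unique in the transcriptome. Over the 77 members, a median of 90.3% of the 50-base windows of the coding sequence occurred exactly in an annotated transcript of another gene, and for 26 members every window did. Over 76 mitochondrial ribosomal protein genes the median was 0.00%. How reads with several equally good places were counted is not stated, and the part of this in the levels was not tested. Across 76 members Spearman's rho between the shared percentage and the zygote level was -0.11, a description across genes of 1 library. The 13 members with at most 50% of windows shared ranged from 1.5 TPM, for Rps3 with 8.09% shared, to 2587 TPM, for Rps27l with 48.3%. All windows of Rpl17, at 737.1 TPM in the zygote, are shared. Among the other lowest members in the zygote, all windows of Rpl9 and Rpl12 are shared. For Rpl3, Rpl22l1 and Rps19 the shared part is 95.7%, 84.2% and 81.1%. The median log2 ratio of the 13 members with at most 50% shared was -0.26, and that of the 63 others compared was -0.11.

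**Figure D4:**
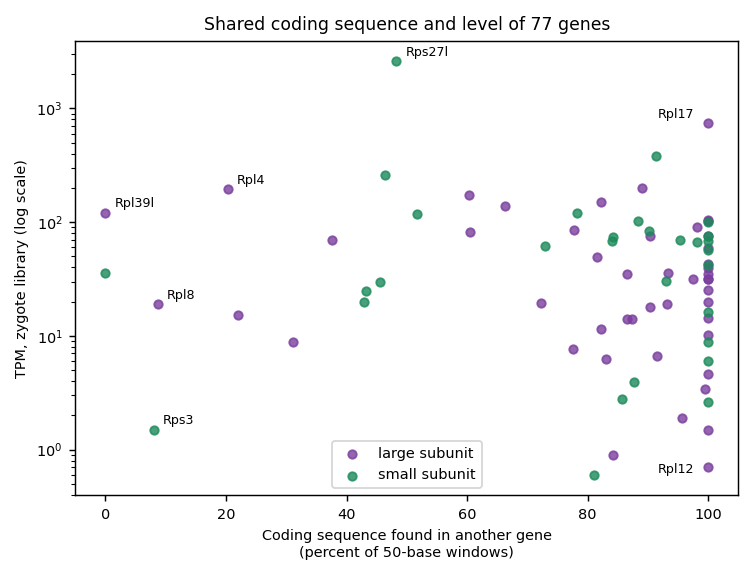
Zygote level in TPM (log axis) of the 77 ribosomal protein genes against the percentage of 50-base windows of their coding sequence that occur in an annotated transcript of another gene. Most genes lie above 80%, and levels from 1.5 to 2587 TPM are found among the 13 genes at or below 50%.

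The genes that build and accompany the ribosome were described from lists written by hand. Of 119 ribosome biogenesis genes compared, 14 passed 2-fold towards PB2 (11.8%, where 18.9% of all genes did) and 10 towards the zygote (8.40%, where 8.09% did), with a median log2 ratio of 0.16. The largest ratios among genes with at least 10 TPM were those of Dcaf13, a nucleolar factor for processing of ribosomal RNA, which had 259.6 TPM in the zygote against 51.6 TPM in PB2, and of Nmd3, the export adaptor of the large subunit, with 65.7 and 18.3 TPM, towards the zygote. Towards PB2 they were those of Cd3eap, a subunit of RNA polymerase I, with 6.30 and 26.2 TPM, and Rrp1, with 9.70 and 26.8 TPM.

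The 23 translation factors and other TOP genes compared had a median log2 ratio of -0.12, with quartiles of -0.51 and 0.54. The list includes Rack1, given above among the ribosomal proteins, and the median is the ratio of Rack1 itself. In each direction 2 genes passed 2-fold, 8.70% where 18.9% of all genes passed towards PB2 and 8.09% towards the zygote. The genes named next had at least 10 TPM in the higher library, and of them only Eef2 passed 2-fold. Eef2, which translocates the ribosome, had 37.7 TPM in the zygote against 96.6 TPM in PB2, and Ybx1, an mRNA-binding protein, 128.1 and 248.3 TPM. Eif3k had 46.0 and 24.1 TPM and Naca, part of the complex that meets the nascent chain, 94.3 and 53.9 TPM. Among the 32 ribosome-bound, quality control and TOP regulator genes compared the median was 0.44, with 6 genes past 2-fold towards PB2, 18.8% where 18.9% of all genes did so, and 1 towards the zygote, 3.12% where 8.09% did so. Rnf10, a ligase that ubiquitylates small subunit proteins, had 6.5 and 24.9 TPM, Gtpbp1 14.6 and 47.4 TPM, Larp1b 24.5 and 12.6 TPM and Abce1, which splits ribosomes for recycling, 14.3 and 6.5 TPM.

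The mitochondrial ribosomal proteins, the gene family most like the cytosolic one, lay lower. Over 75 genes compared their median log2 ratio was -0.39. Past 2-fold lay 6 genes towards PB2, 8% where 18.9% of all genes did so, and 8 towards the zygote, 10.7% where 8.09% did so. The mitochondrial ratios had a standard deviation of 0.69 against 0.54 for the cytosolic ones. Mrps33 had 340.7 TPM in the zygote against 127.7 TPM in PB2 and Mrps6 35.4 and 13.3 TPM, while Mrpl10 had 43.7 and 120.9 TPM and Mrps2 22.4 and 52.8 TPM. With the trend on length removed the mitochondrial median was -0.29, whereas that of the cytosolic proteins turned to 0.11. Whether the families differ was not tested.

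**Figure D5:**
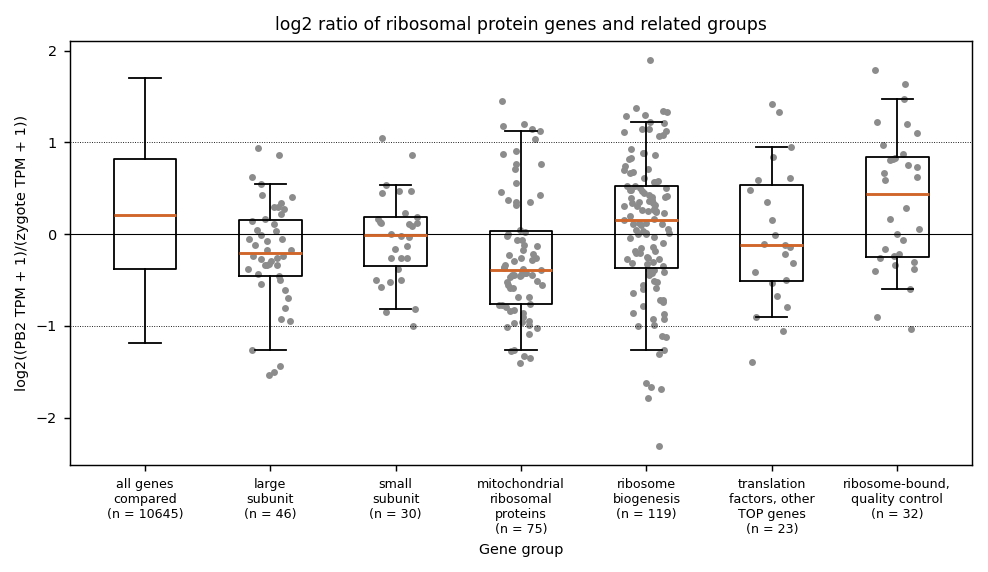
log2((PB2 TPM + 1)/(zygote TPM + 1)) of the genes of each group, with boxes from the lower to the upper quartile, the median in orange and whiskers from the 5th to the 95th percentile; points are genes, and are omitted for all genes compared. The medians are 0.21 for all genes, -0.20 and -0.01 for the large and small subunit, and -0.39 for mitochondrial ribosomal proteins, and dotted lines mark 2-fold.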

How the data were processed

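The members and the gene lists were chosen with earlier results of these data known. Base calling with CASAVA, alignment with HISAT2 (2.0.4, default parameters), counting with HTSeq (0.6.1p1, Ensembl release 85) and normalization with DESeq2 (1.18.1) are given in the paper's methods and the submitters' notes. The methods name the rabbit assembly OryCun2.0 and the notes also GRCm38, and the gene identifiers are those of mouse. The authors deposited TPM values to 1 decimal, 1 column per library. How TPM was computed, and how reads with several alignments were counted, is not given in the sources used here. Depth is unknown and no counting interval is given.

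The log2 ratio used a pseudocount of 1, over genes that reached 1 TPM in one of the libraries or both, and differences of 2-fold or more were counted. A fold change on this scale understates that of low genes. For each gene 1 protein-coding transcript of GENCODE M21 (GRCm38) was taken, by APPRIS level, then support level, then length, for 11221 genes. Trends were fitted by loess (span 0.3) on GC content or log10 length. Exact 50-base windows of coding sequence were searched, on both strands, in the transcripts of all other genes. The fits were tested on simulated data. Genes named are the 6 highest and 6 lowest members in the zygote, the 6 largest ratios in each direction at 10 TPM or more, the stalk proteins, Rps6, Rpl5, Rpl11, Rps27a, X-linked members, paralog pairs, ribosomal proteins with other symbols, and of each list the 2 largest ratios in each direction. Some genes that this rule names are not reported here. The exon overlap of Rpl13a, the genes with similar symbols and the pyrimidine search were chosen after the values were seen. The work ran in Python 3.11.15 with matplotlib 3.10.9, scipy 1.17.1, pandas 2.3.3, statsmodels 0.14.6 and numpy 2.4.6.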

Additional observations from a re-analysis of the deposited data

How the results depend on the processing

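No paired analysis was possible because each group has 1 library. Medians were taken as unchanged within their 95% order-statistic interval over genes, and counts and shares within 1.5 times. For the members the interval was -0.26 to 0.04. It describes the spread between genes, which are not replicates, and not the spread between libraries. Of the values under the alternatives, 49 stayed within these limits and 28 did not.

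Centred on the median of all genes, the members' median was -0.33 and that of the large subunit -0.41. With that centring 0 members were 2-fold higher in PB2 and 10 in the zygote, against 13% and 12.1% of all genes compared. With the GC trend removed the medians of the members, large and small subunit were -0.51, -0.54 and -0.41, with 0 and 14 members past 2-fold. Of the 10606 genes with a GC content, 961 passed 2-fold towards PB2 and 1148 towards the zygote. With the length trend removed the medians were 0.11 for the members and 0.26 for the small subunit, with 5 members higher in PB2 and 3 in the zygote. There 1280 and 1237 of these 10606 genes passed 2-fold. With both trends removed, which was chosen after seeing the data, the medians of the members, large and small subunit were 0.11, 0.060 and 0.28. The counts were then 3 and 2 members. The cause was not tested. Scaling the libraries to a median ratio of 1 gave 7 members higher in the zygote. The shares of all genes with both trends removed and under this scaling are not given here. The filter at 5 TPM left 0 members higher in PB2, since it removes Rps19. At 1.5-fold the counts were 5 and 12, against 34.3% and 18.2% of all genes, and at 4-fold 0 and 0. The shares of all genes at 4-fold and with the filter at 5 TPM are not given here. Without the paralogs 2 members were higher in the zygote and the share in the zygote was 0.483%, and without Rps27l, added after seeing the data, 0.497%. With Rpsa, Fau and Rpl36al added 2 members were higher in PB2. The large subunit members with at most 50% shared windows, also added later, had a median of -0.49. Unknown depth limits what can be said of members under a few TPM.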

Other observations

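The kinases and other genes whose symbols resemble those of ribosomal proteins were outside the selection. Rps6ka5, which encodes the kinase Msk1, had 69.4 TPM in the zygote against 27.7 TPM in PB2, a log2 ratio of -1.29, and Rps6kb1, the kinase that phosphorylates Rps6, had 24.5 and 20.9 TPM. Rps6ka6 had 19.2 and 18.3 TPM, Rps6ka3 9.50 and 7.30 TPM, and Rps6ka1 2.90 and 5.20 TPM. Rps19bp1 had 62.2 TPM in the zygote against 88.8 TPM in PB2. The pseudogene Rpl10-ps3 had 4.50 and 6.10 TPM, against 103.1 and 126.6 TPM for Rpl10, whose coding windows are all shared with other annotated genes.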
